A study of Homo sapiens with 2 samples.

Results

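The 10 tubulin genes described here are TUBA1A, TUBA1B, TUBA1C and TUBA4A for alpha-tubulin, TUBB, TUBB2A, TUBB4B and TUBB6 for beta-tubulin, TUBG1 for gamma-tubulin and TUBE1 for epsilon-tubulin. Their probe sets were found by gene symbol in the array's annotation, which pairs 20 of 54613 human probe sets with 1 of them alone and 1 further probe set with both TUBB2A and a gene outside the 10, TUBB2B. All 10 are among the 12541 genes measured on these arrays. The genes were chosen by symbol with their PML4 to control differences on these same arrays already known, TUBE1's among them, so those differences are a description and no test was made of them.

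RNA came from K562, a human leukaemia line of erythroid and megakaryocytic character. The control group carried the empty retroviral vector pMSCV and the other group a retrovirus for PML4, an isoform of the promyelocytic leukaemia protein. Both groups were selected in G418 for 3 weeks, and each is 1 Affymetrix array, so no value has a replicate and every difference is that between 2 arrays. The labels name neither clones nor the cell pools behind the arrays.

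Tubulins are the subunits of microtubules. Alpha- and beta-tubulin form the heterodimer that polymerises, gamma-tubulin sits in the ring complex from which microtubules grow, and epsilon-tubulin, with delta-tubulin, is needed for the triplet microtubules of centrioles. Vertebrates carry several alpha and beta genes whose proteins are close copies and differ mainly in their C-terminal tails, and cells hold tubulin messenger RNA in check by a feedback that reads the nascent protein's first residues.

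Values are MAS5 signals, the array software's summary of a probe set on a linear intensity scale. The floor was 72.4, the median of all human probe sets, and a measured probe set is 1 that exceeded it on either array. Differences are log2 PML4 minus log2 control vector, and a gene was called at a difference of at least 2-fold. Of human probe sets 51.9% exceeded the floor with the vector and 48.1% with PML4. Of 9 measured probe sets for PML, the overexpressed gene, 5 were higher with PML4 and 4 lower, with differences from -2.57 to 2.83. All 9 K562 marker genes with a probe set of their own were above the floor on both arrays, with signals that summed to 51509.7 with the vector and 77707.7 with PML4. By the brightest probe set of each, 7 of these 9 were higher with PML4 and 2 lower. TFRC, the transferrin receptor, went from 17625.2 to 31653.7 and so made up much of the gap between the sums. HBZ was 3.90-fold higher, TAL1 was 1.44-fold lower and EPOR, the erythropoietin receptor, was 2.08-fold lower in 396_f_at. Other measured probe sets of EPOR gave differences of 0.81 in 209962_at, -0.29 in 209963_s_at and -0.30 in 37986_at. For TAL1 216925_s_at gave 0.32, and for GATA1 1555590_a_at gave -0.52 against 0.27 in its brightest probe set. Of 13 markers of other cells 7 were under the floor on both arrays, namely CD14, CDH5, COL3A1, ELANE, KRT5, LUM and MS4A1. The 4 above it on both were EPCAM, at 5870.4 and 6203.1, LYZ, at 3206.4 and 3134.6, PECAM1, at 1512.1 and 2073.0, and COL1A1, at 394.2 and 278.6. The summed signal of these 13 was 11399.9 and 11933.8. The part of these marker levels in the tubulin values was not tested.

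TUBE1, epsilon-tubulin, was the only one of the 10 genes that differed by at least 2-fold. Its measured probe set, 226181_at, read 5135.8 with the vector and 2042.8 with PML4, a 2.51-fold lower signal and a log2 difference of -1.33. Across all measured genes 3.21% were called lower and 1.23% higher, and the 10 tubulins held 1 lower and 0 higher calls. Bright genes, by which are meant the 3136 whose mean signal reached the 75th percentile, held fewer calls, 0.702% lower and 0.51% higher. TUBE1 and all of the other tubulins but TUBA4A are bright genes, and TUBE1 had rank 6 from the lowest difference among the 3136. Over all 12541 genes it was at rank 124 from the lowest.

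A second TUBE1 probe set, 230891_at, was at 30.3 and 9.3, under the floor on both arrays, so the difference rests on 226181_at alone. In these bulk extracts less TUBE1 RNA per cell and fewer cells with the transcript cannot be told apart.

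**Figure D1:**
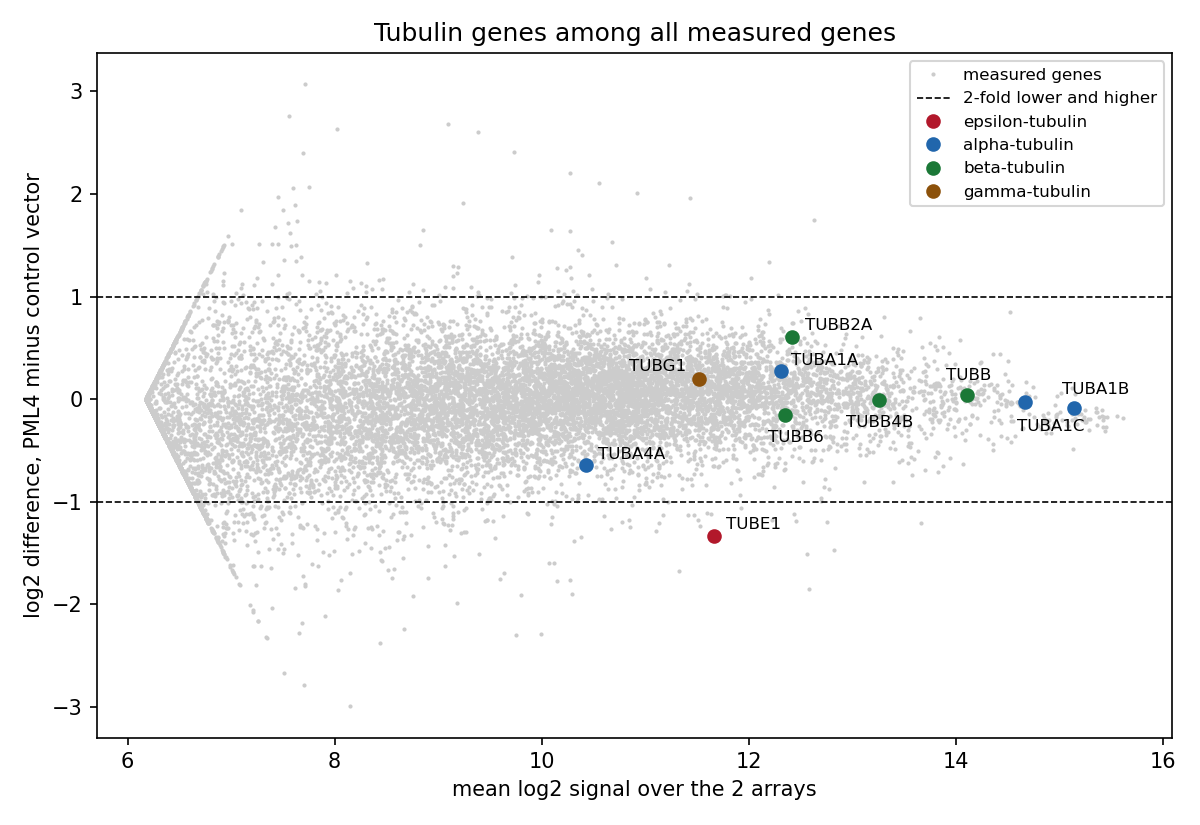
Each grey point is 1 of 12541 measured genes, with its mean log2 signal over the 2 arrays on the x axis and its log2 difference, PML4 minus control vector, on the y axis; coloured points are the 10 tubulin genes and dashed lines mark 2-fold. TUBE1, at -1.33, is the only tubulin outside the lines, while TUBA4A, at -0.64, and TUBB2A, at 0.61, stand off the other 7, which lie between -0.15 and 0.27.

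FAM229B, the gene whose start faces that of TUBE1, gave no such difference. RefSeq places the start of TUBE1 back to back with that of FAM229B, on the opposite strand, with 108 bases between them, so that this stretch lies upstream of both genes. FAM229B was at 298.5 with the vector and 331.7 with PML4, a difference of 0.15 in its only probe set. CCN6, the gene on the other side, was under the floor in both of its probe sets, at 4.4 and 10.7 in 210861_s_at and at 22.7 and 23.3 in 226182_s_at.

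The stretch between the starts is shown as RefSeq gives it for GRCh38.p14, at chr6:112087483-112087590, on the minus strand and so read toward TUBE1. For comparison the 120 bases before the start of TUBB2A, the gene of the 10 with the largest positive difference, are given at chr6:3157545-3157664 on the minus strand, and those before the start of TUBB4B, whose difference was near 0, at chr9:137241167-137241286 on the plus strand. Capitals mark matches, on either strand, to the motifs named in the next paragraph.
TUBE1: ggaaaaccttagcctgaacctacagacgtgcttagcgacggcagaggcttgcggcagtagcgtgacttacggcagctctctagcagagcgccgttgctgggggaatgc
TUBB2A: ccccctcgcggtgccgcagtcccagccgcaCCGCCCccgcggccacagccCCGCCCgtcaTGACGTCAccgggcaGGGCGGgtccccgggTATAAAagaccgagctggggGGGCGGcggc
TUBB4B: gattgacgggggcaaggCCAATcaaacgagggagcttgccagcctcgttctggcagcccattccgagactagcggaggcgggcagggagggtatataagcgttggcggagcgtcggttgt

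The motifs searched on both strands of the 250 bases before each start were the TATA box as TATAAA, the CCAAT box by its own letters, the cAMP response element as TGACGTCA, the core of an ATF4-type composite element as TGATGNAA and the GC box as GGGCGG, none of which contains another. The stretch before TUBE1 held no match to any of the 5, and neither did that before 1 of the TUBB6 starts. How many human promoters lack all 5 was not counted. TUBB2A held 1 match to the TATA box, 1 to the cAMP response element and 5 to the GC box. The 10 genes have 14 starts in RefSeq as used here. The letters TATAAA and the cAMP response element TGACGTCA each occurred before 1 of them, in both cases that of TUBB2A. Only these exact letters were searched, so a TATA box of other letters was not counted. Of 35116 human promoters of the same length, 10.7% held the TATA box, 1.65% the cAMP response element, 32% the CCAAT box, 42.6% the GC box and 3.14% the composite element. The CCAAT box and the GC box each occurred before 8 of the 14 starts, and the composite element before 0. These are matches of letters in a window and describe no binding.

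The alpha-tubulin genes gave differences of both signs. TUBA1B, a widely expressed alpha-tubulin, was read by 5 measured probe sets, all ending in _x_at, which on Affymetrix arrays marks probes that can also match other transcripts. The signals of 212639_x_at were 37331.9 with the vector and 35042.1 with PML4. Those of 213646_x_at were 32726.4 and 30500.7, and those of 211058_x_at 32215.1 and 31015.1. The other two, 211072_x_at and 201090_x_at, were at 30895.8 and 29030.6, and at 29334.3 and 26620.4. Every one was lower with PML4 as deposited, by log2 differences between -0.14 and -0.05, far under the size of a call, but quantile normalization put the gene at 0.07. A further TUBA1B probe set, 1565668_at, was at 2.0 and 28.6, under the floor on both arrays.

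TUBA1C, a close paralog next to TUBA1A in the genome, was read by a pair of _x_at probe sets. The brighter, 209251_x_at, was at 26304.2 and 25766.3 and the other, 211750_x_at, at 25862.7 and 25225.0. Their differences were -0.03 and -0.04, and the sign turned under centring on the median gene, quantile normalization and loess centring. TUBA1A, an alpha-tubulin best known from neurons, was read by 209118_s_at alone, at 4616.7 and 5573.9, a difference of 0.27. That ending, _s_at, marks probes common to several transcripts. TUBA1A was thus higher with PML4 on these arrays while every measured probe set of its paralogs TUBA1B and TUBA1C was lower by 0.14 or less as deposited. All of these differences are smaller in size than 0.30, the median gap between probe sets of a gene.

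TUBA4A, an alpha-tubulin encoded without the C-terminal tyrosine of the others, had the second largest difference downward. Its probe set 212242_at was at 1722.1 with the vector and 1101.4 with PML4, 1.56-fold lower, a log2 difference of -0.64. It passed 1.5-fold, as did 11.9% of measured genes in that direction. With TUBE1 that made 2 lower genes in 10 at that size. Of bright genes, to which TUBE1 belongs, 92.4% lay within 1.5-fold in either direction. TUBE1's difference was known when the genes were chosen, so this count is no test. TUBA4A was the only one of the 10 that is not a bright gene. In RefSeq it overlaps STK16 on one side and TUBA4B on the other. STK16 was at 348.7 and 329.0 and, in its other probe set, at 163.5 and 154.9, both -0.08. TUBA4B was near the floor, at 94.0 and 85.9.

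**Figure D2:**
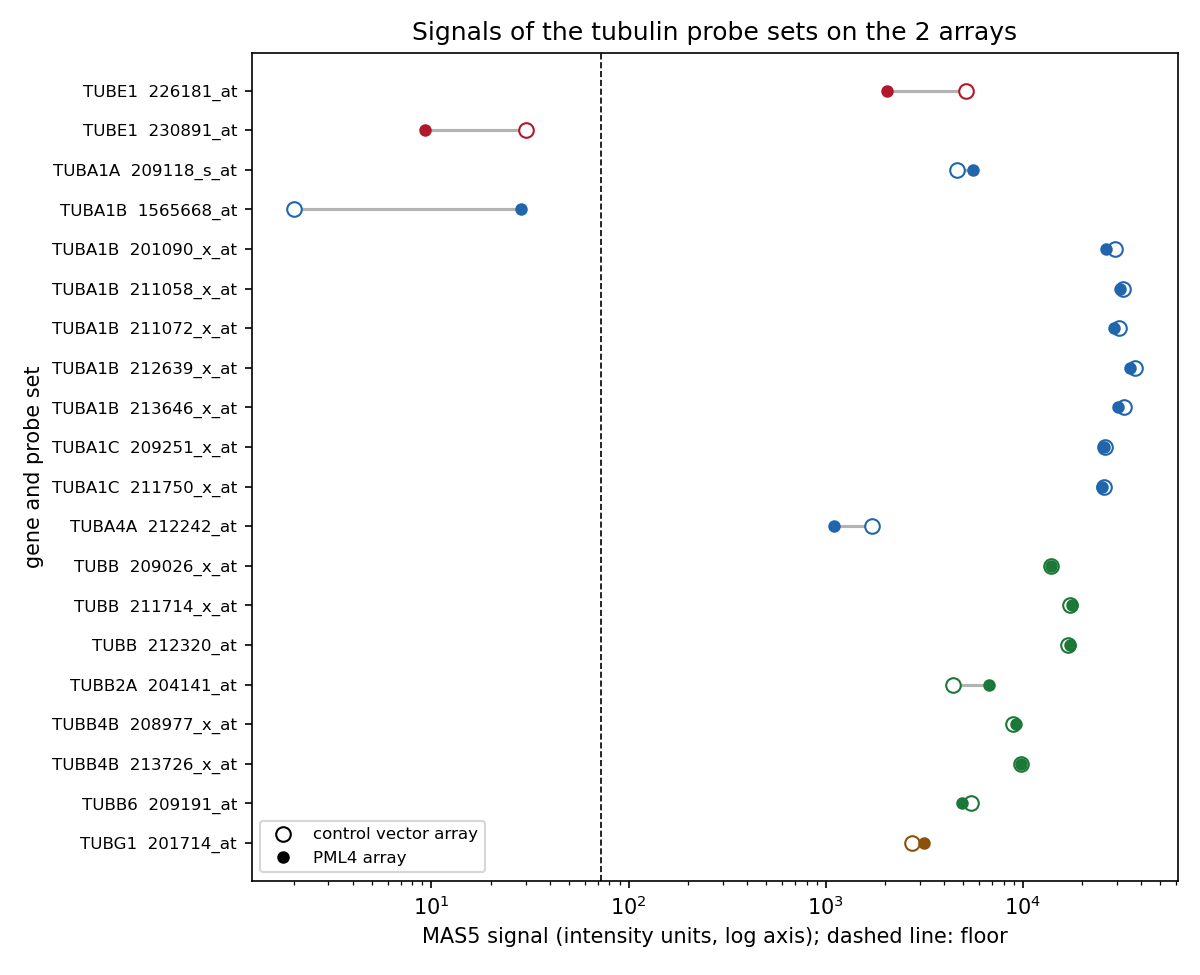
Open circles are the control vector array and filled circles the PML4 array, joined for each of the 20 probe sets of the 10 tubulin genes, with the MAS5 signal on a log axis and the floor of 72.4 as a dashed line. The pairs for TUBE1 226181_at, TUBA4A and TUBB2A are visibly apart, the pairs of TUBA1B, TUBA1C, TUBB and TUBB4B above the floor nearly coincide, and 2 probe sets, TUBE1 230891_at and TUBA1B 1565668_at, lie under the floor.

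Among the beta-tubulin genes TUBB2A stood off from the rest. TUBB2A gave 4444.4 with the vector and 6776.6 with PML4 in 204141_at, 1.52-fold higher, a difference of 0.61. At 1.5-fold it was the only higher gene of the 10, against 5.7% of all measured genes. TUBB2A and TUBB2B are near-identical copies, and the probe set annotated to both, 209372_x_at, was at 447.4 and 492.8, a difference of 0.14 that can be given to neither. TUBB2B's own probe set, 214023_x_at, went the other way, from 607.7 to 203.2, 2.99-fold lower and -1.58 on the log2 scale. The 3 probe sets of this pair therefore disagreed in direction, and 2 of them end in _x_at.

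TUBB, the main beta-tubulin of dividing cells, was nearly level in all 3 of its probe sets. The signals were 17343.5 and 17882.6 in 211714_x_at, 16953.6 and 17364.5 in 212320_at and 13893.7 and 13887.8 in 209026_x_at. The probe set without an ending for shared probes, 212320_at, differed by 0.03, and the others by 0.04 and -0.0006.

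TUBB4B, another beta-tubulin of most cells, was at 9842.9 and 9800.3 in 213726_x_at and at 8940.0 and 9239.5 in 208977_x_at. Its differences of -0.006 and 0.05 have no common sign. TUBB6, a beta-tubulin raised in muscle that regenerates, was at 5491.5 and 4935.3 in 209191_at, a difference of -0.15.

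TUBG1, the gamma-tubulin that nucleates microtubules, was at 2753.4 with the vector and 3149.1 with PML4. Its difference of 0.19 in 201714_at is 1.14-fold.

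Over the 10 genes, 4 were higher with PML4 and 6 lower, and 7 lay within 1.5-fold. Of all 12541 measured genes 5605 were higher and 6936 lower, and 82.5% lay within 1.5-fold, as did 92.4% of bright genes. The median difference of the 10 was -0.02, beside -0.05 for all measured genes and 0.05 for bright genes. By family the medians were -0.06 for the 4 alpha genes and 0.02 for the 4 beta genes. By probe set, 15 of 18 measured ones were within 1.5-fold, against 81.8% of all measured probe sets with 1 gene, and all 18 were above the floor on both arrays. The median of the 10 turned positive under centring on the median gene, quantile normalization and loess centring.

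In the 4 of the 10 genes with several measured probe sets, their differences lay closer together than in the median gene. The range of differences was 0.09 over the 5 probe sets of TUBA1B, 0.006 over those of TUBA1C, 0.04 over the 3 of TUBB and 0.05 over those of TUBB4B. TUBD1 and TUBB3, tubulins outside the 10, had ranges of 0.19 over 3 and 0.53 over 2 probe sets, the latter wider than the median gene. Across 6143 genes with several measured probe sets the median range was 0.43, and across 2080 such bright genes it was 0.40. These 4 genes hold all 11 member probe sets ending in _x_at. Which probes the sets have in common was not analysed here, so that a small range does not make them separate readings. Of the 20 member probe sets 60% end in _x_at or _s_at, against 28.4% of all human probe sets. The 6 remaining genes, TUBE1, TUBA1A, TUBA4A, TUBB2A, TUBB6 and TUBG1, rest on 1 measured probe set each, and the 3 genes farthest from 0 are among them.

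**Figure D3:**
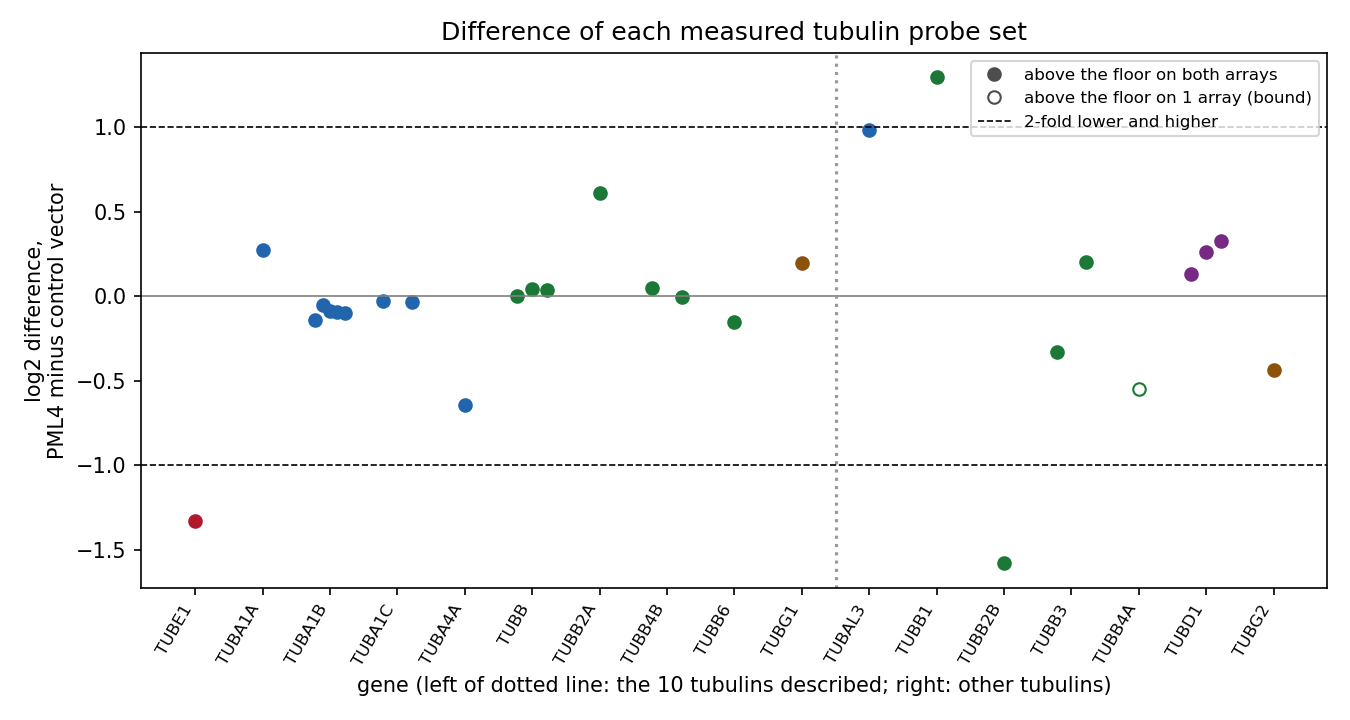
Each point is the log2 difference, PML4 minus control vector, of 1 measured probe set, for the 10 tubulin genes to the left of the dotted line and other tubulins to the right, coloured by family; dashed lines mark 2-fold and the open point is a bound with 1 array under the floor. The probe sets of TUBA1B, TUBA1C, TUBB and TUBB4B cluster within 0.15 of 0, while those of TUBB3 lie on both sides of 0 and TUBB2B and TUBB1 lie beyond 2-fold.

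Of 12 other tubulin genes 8 had their own probe set on the array and 7 were measured, with TUBB1 called higher and TUBB2B lower, where 1.23% of all measured genes were called higher and 3.21% lower. TUBB1, the beta-tubulin of platelets, was at 361.0 and 885.1 in 230690_at, a 2.45-fold higher signal, while its other probe set was under the floor at 10.1 and 52.8. When the floor was raised to the 75th percentile TUBB1 was at 0.93 and TUBB2B at -0.39, neither of them called. TUBAL3, an alpha-like gene, was at 637.5 and 1260.1, a difference of 0.98 just under 2-fold, and at 1.03 when centred on the median gene.

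TUBD1, delta-tubulin and the partner of epsilon-tubulin at the centriole, had a higher signal with PML4 in each of 3 probe sets. These were at 1062.2 and 1164.6, at 905.8 and 1135.0, and at 419.7 and 503.6, differences of 0.13, 0.33 and 0.26. TUBE1 and TUBD1 thus had opposite signs, and only TUBE1 reached 2-fold. TUBB3, the beta-tubulin used as a neuronal marker, was at 5506.6 and 6338.7 in 213476_x_at and at 5805.6 and 4615.8 in 202154_x_at, which gives 0.20 and -0.33. TUBG2, the second gamma-tubulin, was at 130.3 and 96.2, and TUBB4A exceeded the floor with the vector alone, at 105.8 against 58.6. TUBA8 was under the floor on both arrays. The 2 probe sets annotated to both TUBA3C and TUBA3D were at 828.9 and 639.5 and at 1067.3 and 764.4.

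The CCT chaperonin and prefoldin fold new tubulin chains. By the brightest probe set of each, 12 of 12 measured subunits lay within 1.5-fold, as did 82.5% of all measured genes and 92.4% of bright genes, and the median difference was 0.001. By probe set it was 17 of 19, and the exceptions were 205362_s_at of PFDN4, 2.29-fold lower at 444.8 and 194.0, and 201326_at of CCT6A, 1.55-fold higher at 4883.0 and 7567.3. CCT6A was thus at 0.63 when _x_at and _s_at probe sets were left out, against 0.004 in its brightest probe set. CCT8 was at 19880.6 and 19758.0 and CCT4 at 15827.8 and 13755.3. Of the 7 tubulin folding cofactors, which assemble the heterodimer, 0 were called and 6 lay within 1.5-fold, with a median of 0.13. Over all measured genes 3.21% were called lower and 1.23% higher. By probe set 9 of 15 cofactor ones lay within 1.5-fold, against 81.8% of all measured probe sets with 1 gene, and 1 was at least 2-fold higher. Outside were those of TBCB given below, 201759_at and 229192_s_at of TBCD at 0.61 and 0.59, and 231997_at of TBCEL at -0.94, a bound. TBCA was at 14345.1 and 11725.5 and TBCE at 3118.7 and 4055.6. TBCB, named after its values were seen, had the largest difference of that list and was higher in each of 3 probe sets. These were at 1018.1 and 1699.5, 1.67-fold higher, in 201804_x_at, at 977.1 and 1645.7 in 211759_x_at and at 692.6 and 1926.5, 2.78-fold higher, in 216194_s_at.

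Microtubule nucleation and the centriole were covered by the gamma-tubulin ring complex, augmin and centriole assembly, whose measured genes held 0 calls, beside 3.21% lower and 1.23% higher over all measured genes. At lists of this size that is near the background. The 8 measured genes of the gamma-tubulin ring complex all lay within 1.5-fold, with a median of 0.19, beside 0.19 for TUBG1 itself. Both are smaller than 0.30, the median gap between probe sets of a gene, and the list median ran from 0.07 to 0.28 under other processing. By probe set 12 of 15 lay within 1.5-fold. 1554086_at of TUBGCP3 was 2.36-fold lower, at 257.4 and 109.2, while the brightest probe set of that gene was at 1448.6 and 1317.7. MZT1, a small subunit, was at 3040.7 and 2850.4, and NEDD1, which brings the ring complex to the centrosome, at 1839.8 and 2226.3. The 7 measured subunits of augmin, which starts new microtubules on old ones, had a median of -0.09, with HAUS1 at 4369.3 and 4398.8 and HAUS6 at 1872.5 and 2413.9. Of 20 measured genes of centriole assembly 8 were higher and 12 lower, with a median of -0.07. CETN3, a centrin, was at 5870.3 and 5425.9. CEP152, a scaffold of centriole duplication, was at 3156.1 and 3588.3 in 239413_at, a difference of 0.19. Its other measured probe sets were lower, at -0.27 in 215170_s_at, -0.45 in 215882_at and -0.23 in 238535_at. The mean over the CEP152 probe sets was -0.19. None of these 20, which ran from -0.66 to 0.86, reached the size of TUBE1's difference. That difference was known when the genes were chosen, and few measured genes were lower, TUBE1 being at rank 124 from the lowest of 12541. TEDC1 and TEDC2 encode partners of delta- and epsilon-tubulin, and TEDC2 was at 243.4 and 286.7 while TEDC1 was under the floor, at 34.3 and 14.6.

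**Figure D4:**
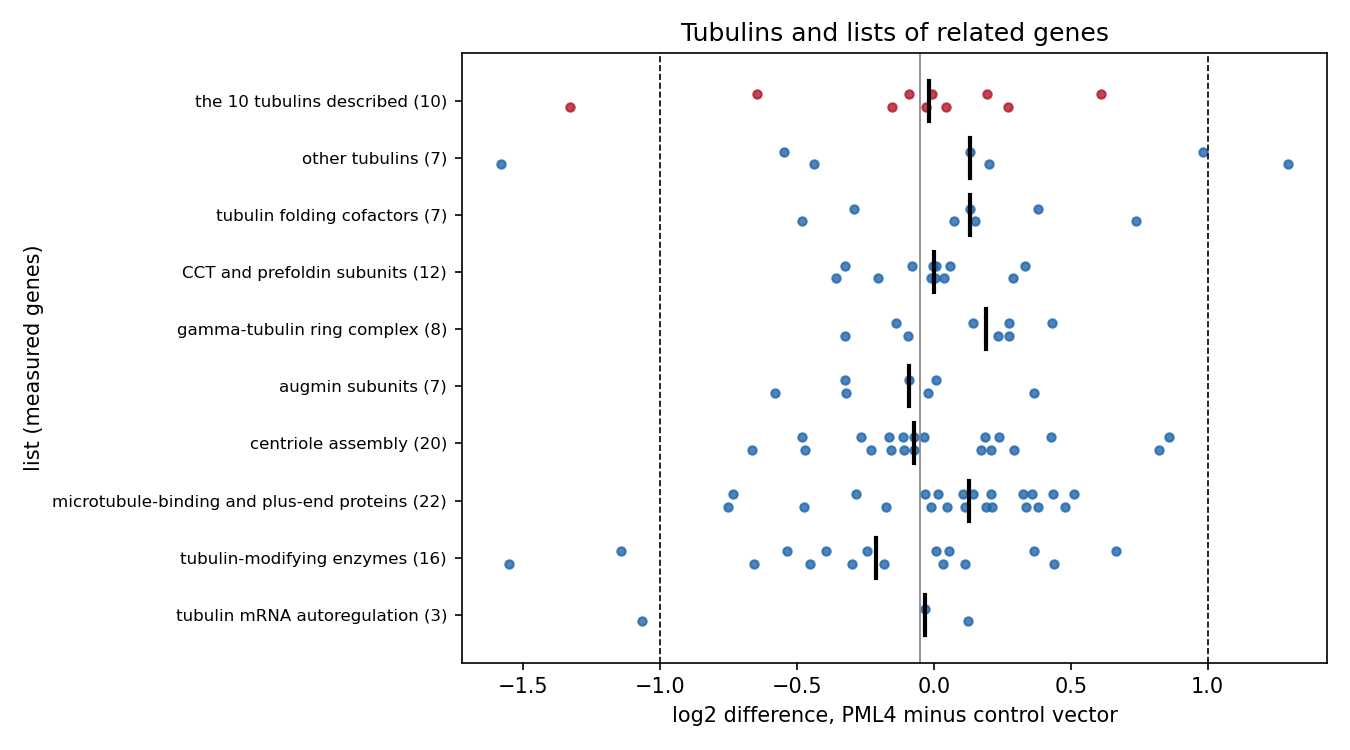
Each point is the log2 difference, PML4 minus control vector, of 1 measured gene, in a row for the 10 tubulins and for each list of related genes with the number measured in brackets; black bars are medians, the grey line is the median of all measured genes at -0.05 and dashed lines mark 2-fold. The rows for folding, nucleation and centriole genes stay inside the dashed lines. Beyond them lie TUBE1 in the row of the 10 tubulins and genes among the other tubulins, the modifying enzymes and the autoregulation genes.

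Enzymes that modify tubulin held 2 lower calls among 16 measured genes, with a median of -0.21, beside 3.21% called lower over all measured genes. By probe set 27 of 34 lay within 1.5-fold, against 81.8% of all measured probe sets with 1 gene. 1555374_at of TTL, 2.03-fold lower, and 1555475_x_at of TTLL3, 2.35-fold lower, passed 2-fold though the brightest probe sets of these genes did not. AGBL3, a carboxypeptidase that trims tubulin tails, was at 691.2 and 236.1, 2.93-fold lower in 232395_x_at, and at -0.57 when the floor was raised to the 75th percentile. Its other probe sets, 1554820_at and 220649_at, were under the floor on both arrays, so the AGBL3 call rests on 232395_x_at alone. TTLL1, the catalytic subunit of a tubulin polyglutamylase, was at 207.0 and 93.7, 2.21-fold lower, but between -0.94 and -0.91, under the size of a call, without a floor and after quantile normalization or loess centring. TTLL12 was at 2641.3 and 2231.5 and HDAC6, the tubulin deacetylase, at 2489.6 and 2022.8. The 22 measured microtubule-binding and plus-end proteins held 0 calls and had a median of 0.13, with 20 of them within 1.5-fold. MAPRE1, the end-binding protein EB1, was at 7810.5 and 8401.9 and TPX2, a spindle assembly factor, at 5804.0 and 7323.6.

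Of the genes for the feedback on tubulin messenger RNA, 1 of 3, SCAPER, was called lower, where 3.21% of all measured genes were. TTC5, which recognises nascent tubulin, differed by -0.03 in 226557_at, its brightest probe set. Its other measured probe sets gave 0.13 in 1558606_s_at and -0.76 in 243007_at, which was at 355.0 and 210.2, 1.69-fold lower. CNOT11, a subunit of the deadenylase complex recruited to TTC5, was at 2784.1 and 3032.6. SCAPER, the adaptor between them, was at 225.3 and 107.6 in 209741_x_at and at 152.7 and 72.9 in 215848_at, both 2.09-fold lower. The remaining SCAPER probe set, 216399_s_at, was at 80.7 and 64.1, near the floor. The mean over its probe sets was -0.76, under the size of a call, as were the values without a floor and after quantile normalization or loess centring, between -0.88 and -0.83.

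Around the tubulin genes, 10 neighbouring genes outside the 10 were measured, with 1 called lower and 0 higher, against 3.21% and 1.23% of all measured genes. That one was SLC34A3, a phosphate transporter gene beside TUBB4B, at 625.6 and 271.1, 2.31-fold lower, with its other probe set under the floor and a difference of -0.43 when the floor was raised to the 75th percentile. BPHL, next to TUBB2A, was at 486.2 and 680.6, a difference of 0.49 beside TUBB2A's 0.61. RETREG3, next to TUBG1, was at 1064.6 and 785.2, a difference of -0.44 beside TUBG1's 0.19, and LMBR1L, next to TUBA1B, at 809.7 and 588.1, -0.46 beside -0.09. FLOT1, next to TUBB, was at 4401.1 and 4221.0 in 208749_x_at, -0.06, and at 4432.2 and 3401.1 in 210142_x_at, -0.38. A dimmer FLOT1 probe set, 208748_s_at, was at 238.6 and 154.8, -0.62. AFG3L2, which overlaps TUBB6, was at 6688.4 and 6651.1 in its brightest probe set.

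Processing moved the 10 genes little. TUBE1 stayed between -1.39 and -1.28 in all 8 other ways of processing the signals, TUBA4A between -0.67 and -0.60 and TUBB2A between 0.57 and 0.66. Each of these genes rests on 1 measured probe set ending in plain _at, with signals above both alternative floors. Changing the floor, averaging probe sets or dropping _x_at and _s_at probe sets therefore could not move them. When probe sets with the endings _x_at and _s_at were dropped, only 6 of the 10 genes had a measured probe set, and TUBA1A, TUBA1B, TUBA1C and TUBB4B had none.

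**Figure D5:**
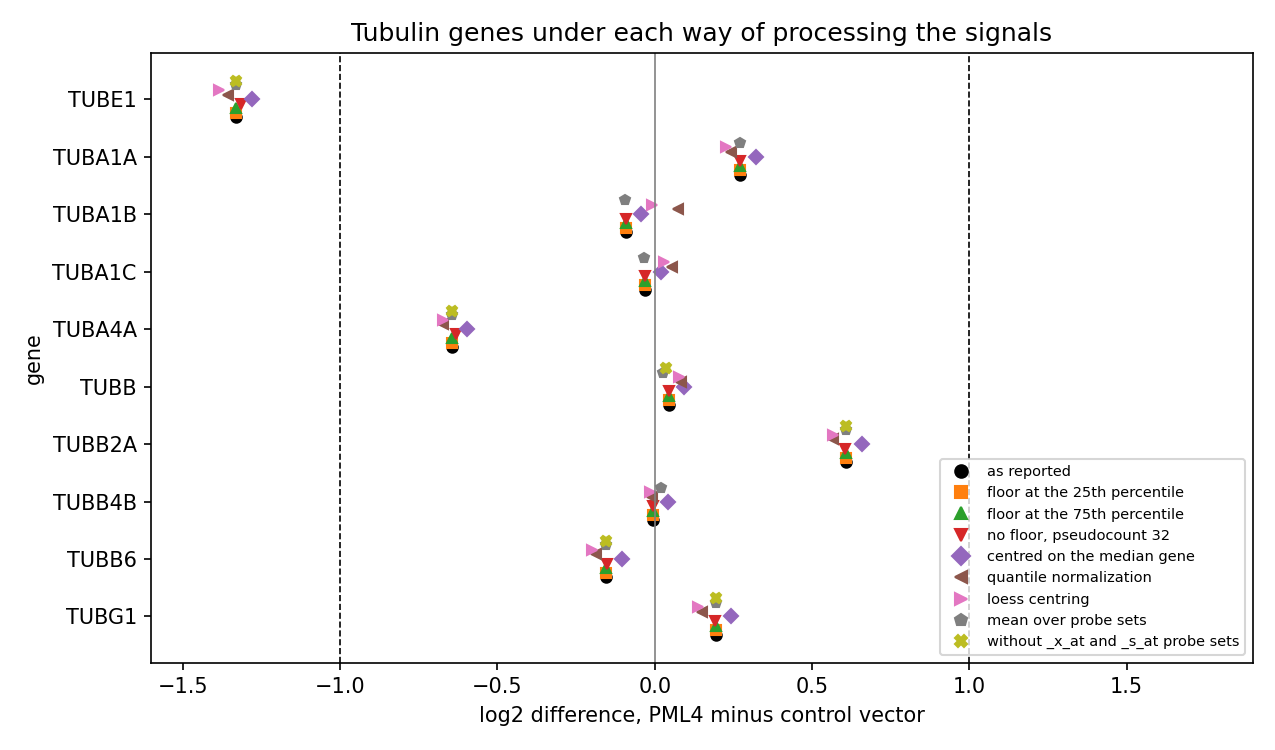
Each symbol is the log2 difference, PML4 minus control vector, of 1 tubulin gene under 1 way of processing the signals, with black circles for the values reported and dashed lines at 2-fold. TUBE1 stays beyond 2-fold in every setting shown, and TUBA4A and TUBB2A stay inside it on opposite sides. Changed floors, averaging and dropped endings could not move TUBE1, TUBA4A or TUBB2A. TUBA1B, TUBA1C and TUBB4B have symbols on both sides of 0.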

How the data were processed

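The authors deposited MAS5 signal intensities on a linear scale, 1 column per array. The method, MAS5, comes from the submitters' processing notes, which give no version. Settings and genome build: not given in the sources used here. Per the labels' protocols, 6 µg of total RNA went into the biotinylated cRNA. The arrays' means, trimmed by 2% on each side, were 500.0 for the vector and 500.1 for PML4. Precision is limited by the number of arrays.

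Computed here from the 54613 human probe sets (pandas 2.3.3): genes were named from GEO's annotation, only where it gives 1 gene (41091 probe sets; 1801 have several and 11721 no entry in the table used). Signals below the floor were set to it, and a difference with 1 side there is a bound. A gene took its measured probe set of highest mean log2 signal. With 1 array per group no test, p-value or standard error was computed. The spread used to set a value against its alternatives was the median gap between probe sets of a gene, 0.30 on the log2 scale over 19460 pairs.

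The members and lists were chosen with earlier results of these data known. The text names every probe set of the 10 genes, measured other tubulins, called list members with the 2 of highest signal per list, and called neighbours. TEDC1, TEDC2, TBCB and the uncalled neighbours were named after their values were seen. So were TBCD, TBCEL, PFDN4, CCT6A, TUBGCP3, TTL and TTLL3, for probe sets seen to pass 1.5-fold or 2-fold. The alternatives tried were the 25th or 75th percentile as floor, a pseudocount of 32 in place of a floor, quantile normalization, loess centring (statsmodels 0.14.6, span 0.4) or subtraction of the median gene, averaging a gene's probe sets, dropping _x_at and _s_at probe sets, and 1.5-fold or 3-fold as the size of a call. Scripts were tested on simulated data. Promoter sequences and neighbours are from RefSeq, GRCh38.p14. All 10 genes matched by symbol. Protein sequences were not used here.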

Additional observations from a re-analysis of the deposited data

How the results depend on the processing

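No paired analysis was possible because each group is 1 array, and no array could be left out. Of the 10 tubulin genes, 1 was lower and 0 higher at 2-fold in all 8 alternatives of floor, scaling and probe set choice. The changed floors, averaging and dropped endings could not move TUBE1, whose 1 measured probe set lay above both floors. Leaving out _x_at and _s_at probe sets reduced the genes to 6. At 1.5-fold the counts were 2 lower and 1 higher, and at 3-fold 0 and 0, since none of the 10 reaches that size. All 76 values of the 10 genes under these alternatives lay within the 0.30 spread between probe sets. The sign turned in 1 alternative for TUBA1B, 3 for TUBA1C and 2 for TUBB4B. The median of the 10 ran from -0.06 to 0.06. Over all genes higher calls made up 27.7% of calls as deposited (154 higher, 402 lower), 41.1% after quantile normalization (196 and 281), 46.3% after loess centring (217 and 252) and 44.2% for a floor at the 75th percentile (50 and 63), so the background shares depend on scaling. No floor gave 168 and 580, and the floor at the 25th percentile 667 and 2000. Medians of related lists turned sign in 1 alternative for other tubulins, CCT and prefoldin subunits and modifying enzymes, and in 4 for the autoregulation genes. Signals near the floor limit TUBG2, TUBB4A, TUBA4B, TTLL1 and SCAPER.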
